A study of Mus musculus with 18 samples.

Results

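The 10 genes described here encode the receptors, Janus kinases (JAKs) and signal transducer of the interleukin-6 (IL-6) cytokine family, with 2 of its inhibitors. They were chosen by exact gene symbol: Il6ra, Il6st, Lifr, Osmr, Jak1, Jak2, Tyk2, Stat3, Socs3 and Pias3. All 10 were found among the 50600 genes counted in livers 1 day after operation and among the 17127 genes counted in livers 12 hours after operation. All 10 also passed the filter on low counts, which left 14266 genes at 1 day and 12548 genes at 12 hours for testing.

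The study asked how the liver responds to myocardial infarction (MI) and what the mineralocorticoid receptor (MR, gene Nr3c2) of hepatocytes does in that response. RNA from whole liver was sequenced in 18 male C57BL/6 mice labelled as post natal week 12, in groups of 3. MI was made by tying off the left anterior descending coronary artery for good, and sham mice had the operation without the ligature. At 1 day there were 4 groups. Littermate control (LC) mice, which the labels call wild type, carry MR flox/flox alleles without Cre, and hepatocyte MR knockout (HMRKO) mice, labelled MR-/-, carry MR flox/flox with Alb-Cre, in which the albumin promoter drives Cre recombinase in hepatocytes, so that other liver cells keep the gene. Both LC and HMRKO mice therefore share the floxed alleles, and the knockout is not germline. Each genotype was studied with each operation (LC + sham, HMRKO + sham, LC + MI, HMRKO + MI). At 12 hours there were 2 groups of C57 mice labelled wild type, here called sham and MI, with no floxed allele named.

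IL-6 binds its own receptor, IL-6Rα (Il6ra), and the pair engages the shared signal-transducing chain gp130 (Il6st). Leukemia inhibitory factor and oncostatin M use gp130 together with LIFR or OSMR. The bound receptors activate JAK1, JAK2 and TYK2, which phosphorylate STAT3, and STAT3 dimers move to the nucleus and switch on target genes that include the feedback inhibitor Socs3. In the liver this pathway is best known for driving the acute phase response, in which hepatocytes secrete fibrinogen, serum amyloid A and other plasma proteins. These data are mRNA levels, so they hold no measure of phosphorylated STAT3 or of receptor protein.

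The 12 libraries at 1 day held 19098704 to 28945526 counts. At 12 hours the 3 MI libraries held 16745645 to 19190405 counts and the 3 sham libraries 1361506 to 2255782, and this difference in depth cannot be told apart from the operation. The 12 hour sham libraries also stood apart in content. Gm20594 took 1.79 to 3.66% of their counts against 0.0167 to 0.0659% in the MI livers, and Il11, a cytokine of the IL-6 family, reached 177 to 296 CPM (counts scaled to library size, with TMM factors) against 0.276 to 3.65. The summed level of 10 hepatocyte markers was 40724 to 48407 CPM in the 12 hour sham livers and 104973 to 130590 CPM in the MI livers, and 8 of the 10 markers were higher after MI. At 1 day the same sum ranged from 65818 to 91364 CPM over all 12 livers, and LC + MI replicate 1 had the highest share of mitochondrial counts, 18.9% against 7.53 to 15.6% in the other 11. Nr3c2 was lower in HMRKO than in LC livers after the same operation without overlap, at 2.55 to 3.76 against 4.71 to 6.70 CPM after sham and 0.895 to 1.10 against 1.90 to 3.56 CPM after MI. In whole liver, fewer cells of a type and less RNA per cell cannot be told apart.

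The promoters shown are those of Socs3, Osmr and Stat3, which had the largest rises of the 10 genes at 12 hours. The promoters of the others, Il6ra among them, are not shown. Each sequence is the 250 bases before the gene's start in the RefSeq table of build GRCm38.p6, on the minus strand in all 3, written in the gene's own direction. The letters TTCNNNGAA, the core of a gamma-activated site that STAT dimers can bind, read the same on both strands and were searched in these 250 bases. Capitals mark a match.
Socs3, chr11:117969367-117969616: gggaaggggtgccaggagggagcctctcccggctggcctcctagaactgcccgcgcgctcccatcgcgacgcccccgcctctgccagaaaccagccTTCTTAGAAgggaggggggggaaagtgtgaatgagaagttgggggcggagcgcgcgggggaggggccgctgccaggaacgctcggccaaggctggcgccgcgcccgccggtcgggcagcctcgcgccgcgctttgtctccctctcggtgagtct
Osmr, chr15:6874314-6874563: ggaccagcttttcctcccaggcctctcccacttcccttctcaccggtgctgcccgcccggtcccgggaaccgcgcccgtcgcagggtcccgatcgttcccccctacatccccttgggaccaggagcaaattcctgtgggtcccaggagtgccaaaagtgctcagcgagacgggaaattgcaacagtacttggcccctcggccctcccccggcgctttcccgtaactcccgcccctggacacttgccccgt
Stat3, chr11:100939541-100939790: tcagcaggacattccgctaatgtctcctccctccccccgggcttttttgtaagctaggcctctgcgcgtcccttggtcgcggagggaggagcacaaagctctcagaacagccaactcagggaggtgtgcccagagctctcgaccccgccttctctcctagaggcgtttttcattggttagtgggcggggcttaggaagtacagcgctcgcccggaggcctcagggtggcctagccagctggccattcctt
The Socs3 window held 1 match, TTCTTAGAA, whose first base lies 154 bases before the start. The Osmr and Stat3 windows held none, which says only that these letters are not in these windows. Of the 12 promoters that the table gives for the 10 genes, 1 held the letters (8.33%), against 7.02% of all 32851 promoters in the table.

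At 12 hours, 4 of the 10 genes were higher after MI than after sham (Socs3, Osmr, Stat3 and Jak1) and 2 were lower (Il6ra and Jak2). An adjusted p under 0.05 from edgeR was reached by 66.2% of all 12548 genes in this comparison, 34.3% higher and 32.0% lower, so 6 of 10 is close to the share of all genes. The groups did not overlap for 7 of the 10 genes, against 71.8% of all genes. The median difference of the 10 genes was 0.44 on the log2 scale, and that of all genes was 0.11.

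At 1 day the genes that passed after MI were not the same in LC and HMRKO livers, which is not itself a test of a difference. In LC livers, Il6ra and Lifr were lower after MI and none of the 10 genes was higher, where 5.00% of all genes passed in either direction and 2.33% were lower, and 3 of the 10 did not overlap against 24.8% of all genes. In HMRKO livers, Il6ra, Osmr, Jak1 and Stat3 were higher and Lifr and Jak2 lower after MI, where 43.7% of all genes passed, 22.0% higher and 21.7% lower, and 8 of the 10 did not overlap against 55.8% of all genes. Set directly against LC + MI, HMRKO + MI livers had more Osmr, Jak1 and Stat3 mRNA and less Jak2, where 30.8% of all genes passed, 14.6% higher and 16.2% lower, and 8 of the 10 did not overlap against 48.8%. After sham operation Il6ra was lower in HMRKO livers, where only 5 of 14266 genes passed (0.0350%), 0.0140% being lower, and 1 of the 10 did not overlap against 11.1%. The effect of MI differed between genotypes, by the interaction term, for Il6ra, Osmr and Stat3, where 15.2% of all genes passed and 6.74% had, as these 3 did, the larger value in HMRKO livers. For the other 7 genes the interaction did not pass. The Il6ra interaction passed whichever liver was left out, while those of Osmr and Stat3 each passed in 3 of 12 such fits. These comparisons share groups of livers, so they are not independent of each other.

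**Figure D1:**
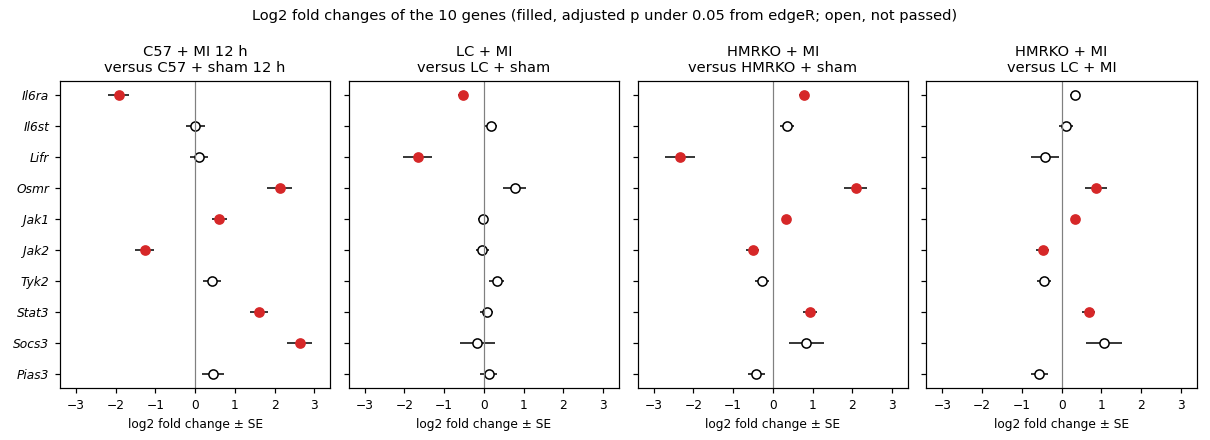
Log2 fold changes of the 10 genes (points) with their standard errors (bars) in 4 comparisons of 3 livers against 3, filled where the adjusted p from edgeR was under 0.05. Osmr and Stat3 lie to the right of 0 and filled at 12 hours and in both HMRKO + MI comparisons, Socs3 is filled only at 12 hours among these 4, and Il6ra lies left of 0 at 12 hours and in LC livers but right of 0 in HMRKO + MI against HMRKO + sham.

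Il6ra, the ligand-binding receptor for IL-6, had the lowest adjusted p of the 10 genes in the test of whether the MI effect differed by genotype. At 12 hours it stood at 107, 130 and 64.3 CPM in the sham livers and 25.6, 30.1 and 23.4 CPM in the MI livers. Every MI liver was below every sham liver, and the level was 3.79-fold lower (log2 -1.92 ± 0.26 SE, adjusted p = 0.000104, edgeR). It was also lower under every alternative that was run, but none of these addressed the depth and content of the sham libraries. The sham level of Il6ra lay above the 18.3 to 42.9 CPM of the 1 day livers, which were counted apart.

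At 1 day, Il6ra was at 38.8, 42.9 and 37.0 CPM in LC + sham and 25.0, 29.0 and 28.8 CPM in LC + MI livers. It was at 21.7, 20.8 and 18.3 CPM in HMRKO + sham and 38.4, 30.7 and 35.3 CPM in HMRKO + MI livers. The order was thus reversed: MI livers were below sham livers in LC mice and above them in HMRKO mice, without overlap in either genotype. In LC livers it fell by 0.52 ± 0.13 on the log2 scale (adjusted p = 0.0365, edgeR), and in HMRKO livers it rose 1.71-fold (log2 0.78 ± 0.13, adjusted p = 0.000592, edgeR). The difference between these effects was 1.30 ± 0.18 on the log2 scale (adjusted p = 0.00405, edgeR). Between the sham groups it was 1.95-fold lower in HMRKO livers (log2 -0.96 ± 0.13, adjusted p = 0.0415, edgeR). HMRKO + MI and LC + MI livers did not overlap, but their difference of 0.33 ± 0.13 missed the threshold (adjusted p = 0.0652, edgeR).

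The interaction and the rise in HMRKO livers passed whichever liver was left out. The fall in LC livers did not pass whichever of the 6 LC livers was left out (adjusted p up to 0.124) or when only the groups compared were fitted (0.0888), and the difference between sham groups passed in 2 of 12 fits that left out a liver (without LC + MI replicate 1 or 3), with p up to 0.214 in the others. In all of these fits the direction was the same, at -0.56 to -0.45 in LC livers and -1.02 to -0.90 between sham groups on the log2 scale. With DESeq2 the difference between sham groups had an adjusted p of 2.07e-07.

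**Figure D2:**
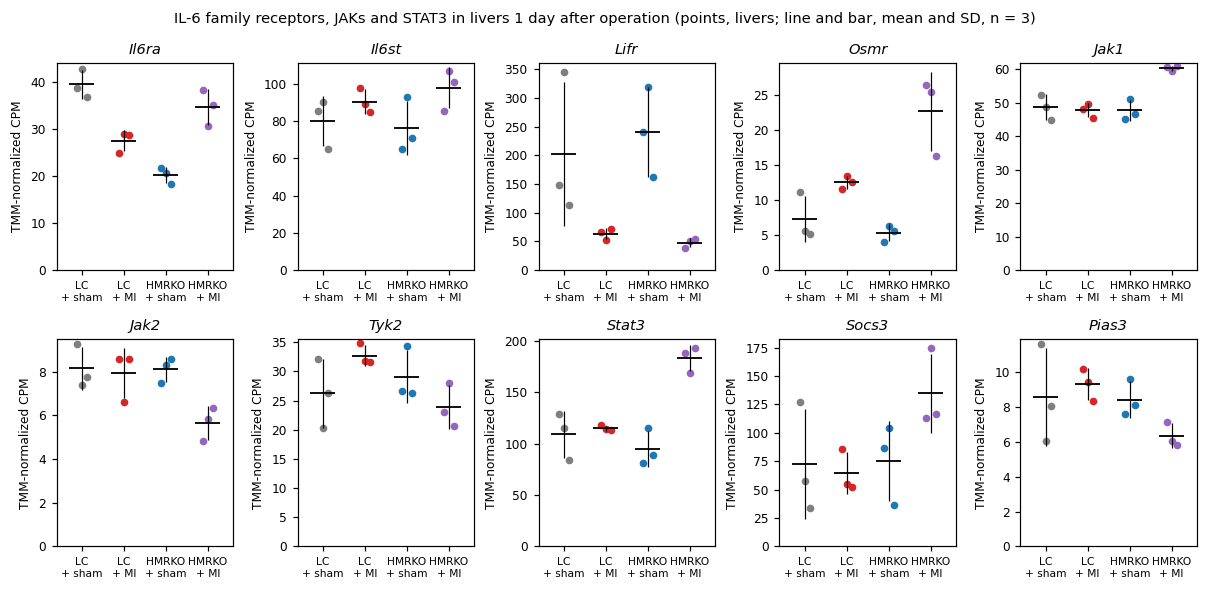
Each panel gives 1 of the 10 genes in the 12 livers at 1 day, as TMM-normalized CPM on a linear axis from 0, with points for livers, a line for the group mean and a bar for the SD (n = 3 per group). Stat3 and Osmr are highest in the 3 HMRKO + MI livers, at 169 to 193 and 16.2 to 26.4 CPM, Il6ra is lowest in HMRKO + sham at 18.3 to 21.7 CPM, and Lifr is below 72 CPM in all 6 MI livers.

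Of the 4 receptor genes among the 10, Osmr, which encodes the oncostatin M receptor, had the largest rise after MI at 12 hours and in HMRKO livers. At 12 hours it stood at 2.95, 7.91 and 7.64 CPM in sham and 23.2, 32.4 and 29.4 CPM in MI livers. The groups lay far apart, and the level was 4.39-fold higher after MI (log2 2.13 ± 0.31, adjusted p = 0.000162, edgeR). On the authors' TPM values the rise was smaller, 1.28 on the log2(TPM + 1) scale (adjusted p = 0.00429, limma). The median of all genes was -0.37 on that scale and 0.11 in edgeR.

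At 1 day, Osmr was at 11.1, 5.59 and 5.23 CPM in LC + sham and 11.6, 13.4 and 12.5 CPM in LC + MI livers. It was at 4.06, 6.36 and 5.62 CPM in HMRKO + sham and 26.4, 25.4 and 16.2 CPM in HMRKO + MI livers. All 3 HMRKO + MI livers were above every other liver. HMRKO livers rose 4.25-fold after MI (log2 2.09 ± 0.29, adjusted p = 0.00019, edgeR), and HMRKO + MI livers were 1.82-fold higher than LC + MI livers (log2 0.86 ± 0.27, adjusted p = 0.0315, edgeR). The difference in LC livers, 0.77 ± 0.28, did not pass (adjusted p = 0.129, edgeR), although the LC groups did not overlap. LC + sham replicate 1 was close to the MI livers, and without it Osmr passed in LC livers too (adjusted p = 0.0179, edgeR). The interaction was 1.32 ± 0.40 (adjusted p = 0.0419, edgeR), and of the 12 fits that left out a liver it passed only without HMRKO + MI replicate 3, LC + sham replicate 2 or LC + sham replicate 3, with adjusted p up to 0.0873 and log2 values of 0.88 to 1.51. The difference between MI groups passed in 7 of the 12 such fits and was lost without LC + MI replicate 1, 2 or 3, HMRKO + MI replicate 1 or HMRKO + MI replicate 2 (adjusted p up to 0.097).

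Lifr, the leukemia inhibitory factor receptor, fell in both genotypes at 1 day. It was at 148, 345 and 113 CPM in LC + sham and 66.5, 52.4 and 71.4 CPM in LC + MI livers. It was at 241, 319 and 163 CPM in HMRKO + sham and 38.5, 51.2 and 53.9 CPM in HMRKO + MI livers. Every MI liver was below every sham liver, and the sham livers varied widely, with LC + sham replicate 2 at 3 times the level of LC + sham replicate 3. The level after MI was 3.19-fold lower in LC livers (log2 -1.67 ± 0.36, adjusted p = 0.0232, edgeR) and 5.03-fold lower in HMRKO livers (log2 -2.33 ± 0.37, adjusted p = 0.000436, edgeR). The interaction of -0.66 ± 0.50 did not pass (adjusted p = 0.38, edgeR). In LC livers the call was lost without LC + sham replicate 2, LC + MI replicate 2 or LC + MI replicate 3 (log2 down to -1.04, adjusted p up to 0.0952) and when only the groups compared were fitted (0.0671). In HMRKO mice it passed whichever liver was left out.

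At 12 hours no such fall of Lifr was seen. The sham livers held 48.3, 73.6 and 47.6 CPM and the MI livers 54.4, 52.3 and 74.4 CPM. The groups overlapped and the difference was 0.09 ± 0.23 on the log2 scale (adjusted p = 0.74, edgeR).

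Il6st, which encodes the shared chain gp130, passed the test in no comparison. Its group means at 1 day were 80.3 ± 13.4 CPM in LC + sham, 90.6 ± 6.57 in LC + MI, 76.3 ± 14.6 in HMRKO + sham and 97.8 ± 10.9 in HMRKO + MI (SD, n = 3). The largest difference was 0.36 ± 0.17 on the log2 scale, between HMRKO + MI and HMRKO + sham (adjusted p = 0.103, edgeR). That difference passed without HMRKO + sham replicate 2 (adjusted p = 0.0339, edgeR). At 12 hours Il6st was at 75.0 ± 24.9 CPM in sham and 75.4 ± 1.19 CPM in MI livers, with the 3 sham livers spread from 53.0 to 102 CPM around the MI livers.

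**Figure D3:**
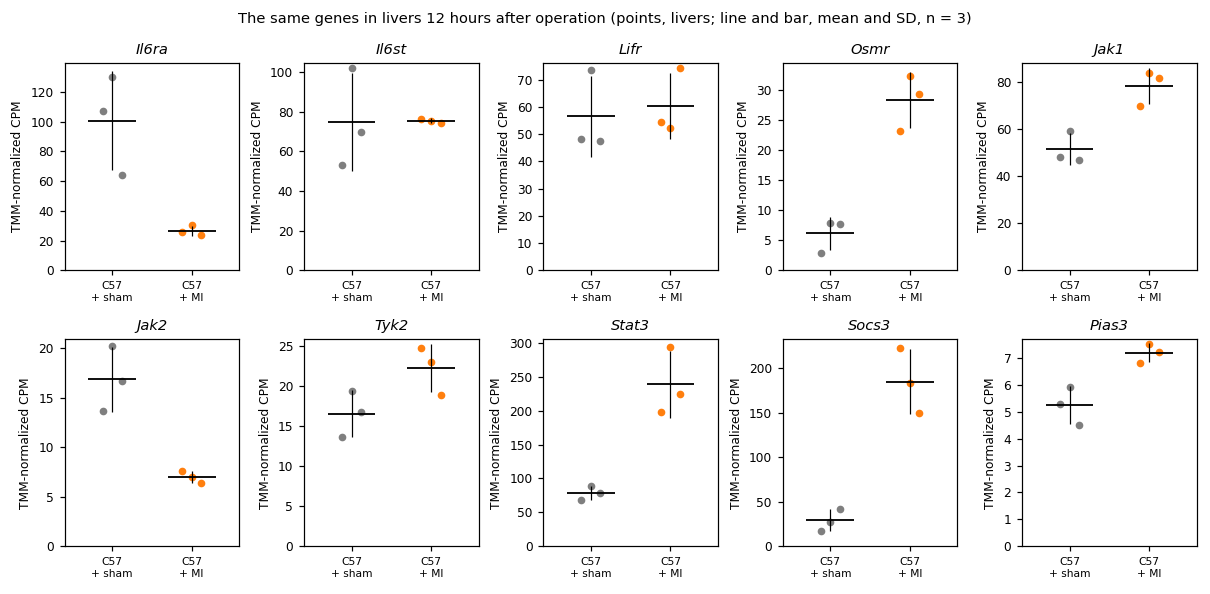
The 10 genes in the 6 livers at 12 hours, as TMM-normalized CPM on linear axes from 0, with points for livers, a line for the mean and a bar for the SD (n = 3 per group). Socs3, Stat3 and Osmr are higher in every MI liver than in every sham liver, Il6ra and Jak2 are lower, and Il6st and Lifr overlap.

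Among the kinases, Jak1 was higher where Jak2 was lower. At 12 hours Jak1 was at 48.3, 59.3 and 46.9 CPM in sham and 69.8, 83.9 and 81.6 CPM in MI livers (log2 0.61 ± 0.19, adjusted p = 0.0156, edgeR). Jak2 was at 13.6, 20.2 and 16.7 CPM in sham and 7.58, 7.04 and 6.40 CPM in MI livers, 2.41-fold lower (log2 -1.27 ± 0.24, adjusted p = 0.000921, edgeR). Neither kinase overlapped between groups. The fall of Jak2 passed under every alternative, but none of these addressed the depth and content of the sham libraries. The sham level of Jak2 also lay above the 4.81 to 9.26 CPM of the 1 day livers, which were counted apart. The rise of Jak1 did not pass without MI replicate 2 or 3 (adjusted p up to 0.0816, edgeR). On the authors' TPM values Jak1 differed by -0.04 on the log2(TPM + 1) scale (adjusted p = 0.878, limma). The median of all genes was -0.37 on that scale and 0.11 in edgeR.

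At 1 day the kinases moved in HMRKO livers only by small amounts. Jak1 was at 60.6, 59.5 and 60.8 CPM in HMRKO + MI livers and at 44.9 to 52.4 CPM in the other 9, which it did not overlap. It was 1.26-fold higher than in HMRKO + sham (log2 0.34 ± 0.11, adjusted p = 0.026, edgeR) and 1.26-fold higher than in LC + MI (log2 0.34 ± 0.11, adjusted p = 0.0381, edgeR). Jak2 was at 4.81, 5.84 and 6.34 CPM in HMRKO + MI livers and at 6.59 to 9.26 CPM in the other 9. It was 1.43-fold lower than in HMRKO + sham (log2 -0.51 ± 0.17, adjusted p = 0.0257, edgeR) and 1.39-fold lower than in LC + MI (log2 -0.48 ± 0.17, adjusted p = 0.0464, edgeR). For neither kinase did the interaction pass (adjusted p = 0.124 for Jak1 and 0.182 for Jak2, edgeR). When 1 liver was left out, the difference from LC + MI was lost for Jak1 without each of the LC + MI and HMRKO + MI livers in turn and without HMRKO + sham replicate 3 (adjusted p up to 0.114), and Jak2 passed only without LC + sham replicate 1 or LC + MI replicate 2 (adjusted p up to 0.148 in the others). The difference from HMRKO + sham was lost for Jak1 without each of the HMRKO + MI livers in turn and without HMRKO + sham replicate 1 or 3 (adjusted p up to 0.0867), and for Jak2 without HMRKO + MI replicate 1 or 2 or HMRKO + sham replicate 2 or 3 (adjusted p up to 0.0951).

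Tyk2 passed in no comparison. After MI it was at 31.6 to 34.8 CPM in LC and 20.6 to 28.0 CPM in HMRKO livers, which did not overlap, with a difference of -0.45 ± 0.18 on the log2 scale (adjusted p = 0.0684, edgeR). That difference passed without LC + sham replicate 1 (adjusted p = 0.0467, edgeR) or 2 (0.0459). The Tyk2 interaction passed without LC + sham replicate 1 (adjusted p = 0.0496, edgeR). At 12 hours Tyk2 stood at 16.5 ± 2.91 CPM in sham and 22.3 ± 3.03 CPM in MI livers (adjusted p = 0.122, edgeR).

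Stat3, the transcription factor on which the pathway converges, rose at 12 hours and, at 1 day, in HMRKO livers. At 12 hours it stood at 67.8, 88.2 and 79.2 CPM in sham and 198, 294 and 224 CPM in MI livers. The lowest MI liver had more than the highest sham liver by over 100 CPM, and the level was 3.04-fold higher (log2 1.60 ± 0.23, adjusted p = 0.000147, edgeR). On the authors' TPM values the rise was smaller, 0.95 on the log2(TPM + 1) scale (adjusted p = 0.00355, limma), where the median of all genes was -0.37.

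At 1 day, Stat3 was at 129, 115 and 84.3 CPM in LC + sham and 118, 114 and 113 CPM in LC + MI livers. It was at 81.3, 115 and 88.8 CPM in HMRKO + sham and 188, 169 and 193 CPM in HMRKO + MI livers. The 3 HMRKO + MI livers lay above all 9 others, which overlapped. The difference in LC livers was 0.07 ± 0.17 on the log2 scale (adjusted p = 0.867, edgeR). In HMRKO livers Stat3 rose 1.92-fold (log2 0.94 ± 0.17, adjusted p = 0.00113, edgeR), and HMRKO + MI livers were 1.60-fold above LC + MI livers (log2 0.68 ± 0.17, adjusted p = 0.0125, edgeR). Both passed whichever liver was left out. The interaction was 0.88 ± 0.25 (adjusted p = 0.0327, edgeR), and of the 12 fits that left out a liver it passed only without HMRKO + MI replicate 2, HMRKO + sham replicate 2 or LC + sham replicate 3, with log2 values from 0.74 to 1.04 and adjusted p up to 0.0731.

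Socs3, the feedback inhibitor whose promoter holds the match shown above, had the largest rise of the 10 genes at 12 hours. It was at 17.7, 27.7 and 42.4 CPM in sham and 222, 183 and 149 CPM in MI livers, 6.21-fold higher (log2 2.63 ± 0.31, adjusted p = 4.04e-05, edgeR). All MI livers were above all sham livers. On TPM the rise of Socs3 was 2.03 on the log2(TPM + 1) scale (adjusted p = 0.000488, limma), where the median of all genes was -0.37.

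At 1 day Socs3 varied widely between livers of a group. It was at 127, 57.4 and 33.6 CPM in LC + sham and 86.0, 55.0 and 52.7 CPM in LC + MI livers. It was at 86.3, 104 and 36.2 CPM in HMRKO + sham and 113, 175 and 117 CPM in HMRKO + MI livers. HMRKO + MI livers did not overlap with LC + MI or HMRKO + sham livers, but LC + sham replicate 1 lay within their range. The difference between MI groups was 1.07 ± 0.45 on the log2 scale (adjusted p = 0.0854, edgeR), and it passed with DESeq2 (0.039), when only the groups compared were fitted (0.017) and without LC + sham replicate 1 (0.0389). Against HMRKO + sham it was 0.84 ± 0.44 (adjusted p = 0.143, edgeR), and in LC livers -0.17 ± 0.44 (adjusted p = 0.869, edgeR).

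Pias3, which encodes an inhibitor that binds STAT3, passed in no comparison. It was at 5.84 to 7.16 CPM in HMRKO + MI and 8.37 to 10.2 CPM in LC + MI livers, which did not overlap (log2 -0.56 ± 0.21, adjusted p = 0.062, edgeR). That difference passed when only the groups compared were fitted (adjusted p = 0.0364, edgeR) and without LC + sham replicate 1 (0.0251) or 2 (0.0334). The Pias3 interaction passed without LC + sham replicate 1 (adjusted p = 0.0487, edgeR). At 12 hours Pias3 was at 5.25 ± 0.709 CPM in sham and 7.18 ± 0.359 CPM in MI livers (log2 0.46 ± 0.28, adjusted p = 0.176, edgeR). After sham operation the 9 genes other than Il6ra differed between genotypes by -0.46 to 0.25 on the log2 scale, with adjusted p from edgeR of 0.919 or more.

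The authors' TPM values at 12 hours are scaled to transcript length and allow levels of different genes to be compared. In sham livers the order from high to low was Il6ra, Stat3, Lifr, Il6st, Socs3, Jak1, Tyk2, Jak2, Pias3 and Osmr. Il6ra had 50.7 ± 17.1 TPM and Osmr 2.33 ± 1.08 TPM (SD, n = 3). From Il6ra to Jak1 each gene overlapped with the next, as did Jak2, Pias3 and Osmr with their neighbours, while Jak1 and Tyk2, and Tyk2 and Jak2, did not. In MI livers the order was Socs3, Stat3, Lifr, Jak1, Il6st, Il6ra, Osmr, Tyk2, Pias3 and Jak2. Socs3 had 74.3 ± 14.0 TPM and Stat3 58.3 ± 10.9 TPM, which overlapped, and both were far above Lifr at 17.2 ± 4.54 TPM. Il6ra moved from the first place to the sixth, at 8.63 ± 0.888 TPM, and Osmr from the tenth to the seventh, at 6.77 ± 1.04 TPM. In MI livers Lifr and Jak1, Jak1 and Il6st, and Osmr and Tyk2 overlapped, so their order is not settled, while Il6ra overlapped with neither neighbour. Lengths are not in the 1 day table, so levels of different genes were not compared there.

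The cytokines that bind these receptors were mostly near the detection limit in the liver itself. Of 11 listed ligands, 3 passed the filter on low counts at 1 day and 4 at 12 hours. Il6 was at 0 to 0.138 CPM in all 18 livers, Osm at 0 to 0.138 CPM, and Lif at 0 to 0.168 CPM at 1 day and 0 to 0.483 CPM in the 12 hour MI livers, while the 12 hour sham livers held 0.395 to 3.54 CPM of Lif. Cntf, ciliary neurotrophic factor, was at 1.06 to 2.54 CPM at 1 day and passed in no comparison. Clcf1, cardiotrophin-like cytokine factor 1, was the one ligand that rose after MI in every comparison with sham. It was at 3.45, 1.44 and 1.91 CPM in LC + sham and 5.11, 6.96 and 5.85 CPM in LC + MI livers. It was at 2.72, 2.26 and 2.98 CPM in HMRKO + sham and 17.9, 15.6 and 14.1 CPM in HMRKO + MI livers. Neither genotype's groups overlapped, with rises of 1.40 ± 0.27 in LC livers (adjusted p = 0.0149, edgeR) and 2.57 ± 0.27 in HMRKO livers (adjusted p = 3.51e-05, edgeR) on the log2 scale. HMRKO + MI exceeded LC + MI livers by 1.41 ± 0.25 (adjusted p = 0.00244, edgeR). At 12 hours Clcf1 stood at 2.37 to 2.95 CPM in sham and 6.40 to 12.5 CPM in MI livers (log2 1.80 ± 0.38, adjusted p = 0.00176, edgeR). Ctf1, cardiotrophin 1, was lower in HMRKO + MI livers, at 2.22 ± 0.671 CPM, than in LC + MI livers, at 4.18 ± 0.669 CPM (log2 -0.92 ± 0.28, adjusted p = 0.0281, edgeR). It held 1.97 to 2.76 CPM in the 12 hour MI livers and at most 0.589 CPM in the shallow sham libraries, a level reached by single counts. Il11 fell by 7.23 ± 0.67 on the log2 scale at 12 hours (adjusted p = 1.08e-05, edgeR), which rests on the high sham level described above and on 4.15 to 51.7 estimated counts per MI liver.

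Of 7 other receptor genes and shedding enzymes, Lepr, the leptin receptor, which signals through JAK2 and STAT3, differed most. It was at 33.6, 29.0 and 6.39 CPM in HMRKO + MI livers, at 0.501, 2.25 and 1.00 CPM in LC + MI livers, at 0.434 to 0.796 CPM in HMRKO + sham livers and at 0.971 to 3.01 CPM in LC + sham livers. All 3 HMRKO + MI livers were above the other 9, although replicate 3 had far less than the other two. The level was 18.0-fold above LC + MI (log2 4.17 ± 0.65, adjusted p = 0.00131, edgeR) and the rise over HMRKO + sham was 5.20 ± 0.71 on the log2 scale (adjusted p = 0.000181, edgeR). Il11ra1, the receptor for interleukin-11, had 20.9 ± 1.56 CPM in HMRKO + MI livers, where LC + MI had 45.2 ± 13.8 CPM and HMRKO + sham 45.6 ± 3.15 CPM, 2.16-fold and 2.18-fold lower (adjusted p = 0.00181 and 0.000549, edgeR). At 12 hours, 2 of the 7 were higher, Adam10 (log2 1.84 ± 0.26) and Adam17 (log2 1.11 ± 0.30), enzymes that release receptor ectodomains from the cell surface, and 2 were lower, Il11ra1 (log2 -0.69 ± 0.19) and Il11ra2 (log2 -1.87 ± 0.55), the latter at 0.460 ± 0.103 CPM in MI livers. Of all genes 34.3% were higher and 32.0% lower in that comparison.

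None of the other JAK and STAT genes tested passed as higher in any comparison, which over 6 genes gives no trait of the family. At 1 day none of the 6 passed in LC livers, against 5.00% of all genes. In HMRKO + MI livers 2 were lower than in LC + MI livers, against 16.2% of all genes, and 2 were lower than in HMRKO + sham livers, against 21.7%. Stat2, which acts downstream of interferons, was lower in both comparisons. It had 83.8 ± 1.89 CPM in HMRKO + MI, 179 ± 52.8 CPM in LC + MI (log2 -1.10 ± 0.28, adjusted p = 0.0129, edgeR) and 142 ± 36.6 CPM in HMRKO + sham livers (log2 -0.76 ± 0.28, adjusted p = 0.0446, edgeR). At 12 hours 3 of 6 were lower, Stat5a (log2 -1.29 ± 0.26), Stat2 (log2 -0.68 ± 0.24) and Jak3 (log2 -0.60 ± 0.23), where 32.0% of all genes were lower. The medians of these 6 genes were -0.48 in HMRKO + MI against LC + MI, -0.51 against HMRKO + sham and -0.52 at 12 hours on the log2 scale, beside -0.01, 0.01 and 0.11 for all genes.

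Among the other inhibitors of the pathway, 6 of 14 tested were higher and 2 lower at 12 hours (median log2 0.63). Of all genes 66.2% passed in that comparison, 34.3% higher and 32.0% lower, so the counts alone are no result about inhibitors. Cish, a relative of Socs3, had 20.9 ± 4.25 CPM after MI and 5.83 ± 2.65 CPM after sham (log2 1.84 ± 0.33, adjusted p = 0.00066, edgeR). Ptpn2, a phosphatase that acts on JAKs and STATs, rose by 1.41 ± 0.23, Socs6 by 1.22 ± 0.26 and Pias2 by 1.04 ± 0.20 on the log2 scale. Pias4 fell by 2.14 ± 0.21 (adjusted p = 1.52e-05, edgeR), from 44.8 to 66.6 CPM in sham to 10.9 to 13.1 CPM in MI livers. That fall rests on a high level in the shallow sham libraries. The 1 day livers, counted apart, held 11.9 to 18.9 CPM of Pias4 after either operation. Socs1, another inhibitor of JAKs, passed with 267 estimated counts in all over the MI livers, 195 of them in MI replicate 2. The sham livers, which were sequenced to a much lower depth, held 2 in all, so no fold change is given. At 1 day 3 of 15 tested inhibitors, Ptpn2, Socs6 and Pias2, were higher in HMRKO + MI than in LC + MI, against 14.6% of all genes. None of them was higher by more than 1 on the log2 scale. Of 6 adaptors that link the receptors to other routes, 5 were higher and 1 lower at 12 hours. Sos1 (log2 1.82 ± 0.21), Shc1 (1.43 ± 0.19) and Ptpn11 (1.05 ± 0.19) rose and Gab1 fell by 1.08 ± 0.28. In HMRKO + MI against LC + MI, 4 of the 6 adaptors, Ptpn11, Sos1, Sos2 and Shc1, were higher, against 14.6% of all genes. The list median was 0.48 on the log2 scale.

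Genes that STAT3 is known to induce were read in a pair of lists. The first held 10 early and regulatory genes, all tested. At 12 hours 5 were higher and none lower, and the list median was 1.43 on the log2 scale beside 0.11 for all genes. Of all genes 34.3% were higher and 32.0% lower. Junb, a subunit of the AP-1 factor, had 137 ± 9.85 CPM in MI and 23.7 ± 6.08 CPM in sham livers (log2 2.53 ± 0.23, adjusted p = 1.04e-05, edgeR). Bcl3 rose by 2.20 ± 0.23, Cebpd by 2.20 ± 0.25, Pim3 by 1.76 ± 0.37 and Cebpb by 1.62 ± 0.21 on the log2 scale. At 1 day in LC livers none of the 10 was higher, and Mcl1, which keeps cells from apoptosis, fell by 0.66 ± 0.12 on the log2 scale (adjusted p = 0.0134, edgeR). Of all genes 2.33% were lower in LC livers. In HMRKO livers Mcl1 fell by 0.70 ± 0.12 and Cebpd was higher after MI, where 22.0% of all genes were higher and 21.7% lower. Cebpd, which encodes a transcription factor of acute phase genes, had 29.9 ± 6.08 CPM in HMRKO + MI, 8.37 ± 1.19 CPM in HMRKO + sham and 12.9 ± 3.07 CPM in LC + MI livers. It was 3.57-fold and 2.32-fold higher in HMRKO + MI than in these groups (adjusted p = 0.000163 and 0.00375, edgeR). Junb was 3.02-fold higher in HMRKO + MI than in LC + MI livers (adjusted p = 0.00779, edgeR), but not above HMRKO + sham livers, at 71.5 ± 25.6 CPM, by the test.

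The second list held 26 genes for plasma proteins and related products of the acute phase response. At 12 hours 20 of 24 tested were higher after MI and none lower, with a list median of 2.21 on the log2 scale. Of all genes 34.3% were higher. The hepatocyte markers rose as well, 8 of 10 being higher and none lower, with a median of 1.63. The part of that shift in the rise of this list was not tested. Fga, a chain of fibrinogen, was at 1181, 2003 and 1465 CPM in sham and 18185, 54730 and 45887 CPM in MI livers (log2 4.68 ± 0.50, adjusted p = 2.22e-05, edgeR). The other chains, Fgb and Fgg, rose by 4.36 ± 0.43 and 4.42 ± 0.47, Steap4, a metalloreductase, by 5.53 ± 0.60, Lcn2, an iron-sequestering protein, by 4.19 ± 0.38, and Apcs, the serum amyloid P component, by 3.60 ± 0.33 on the log2 scale.

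At 1 day, 5 of 25 genes of the second list were higher in LC + MI than in LC + sham livers (median 0.40). In HMRKO livers 15 rose and 2 fell after MI (median 1.01), beside a median of 0.01 for all genes in both. The genes that fell were Saa4 (log2 -1.21 ± 0.36) and Il1rn (log2 -1.80 ± 0.48). Of all genes, 5.00% passed in LC livers in either direction, and 22.0% rose and 21.7% fell in HMRKO livers. Set against LC + MI, HMRKO + MI livers had more mRNA of 8 genes and less of Saa4, where 14.6% of all genes were higher and 16.2% lower. Fga was at 2069, 3071 and 1857 CPM in LC + sham and 2542, 5494 and 4680 CPM in LC + MI livers. It was at 1970, 1388 and 1488 CPM in HMRKO + sham and 15577, 23026 and 22439 CPM in HMRKO + MI livers. The LC groups overlapped and every HMRKO + MI liver was above every other liver, 12.6-fold above HMRKO + sham and 4.80-fold above LC + MI. Fgg, Fgb and Steap4 were 3.74-fold, 2.59-fold and 4.49-fold higher in HMRKO + MI than in LC + MI livers. Saa1, a serum amyloid A gene with near-identical relatives that can share reads, was 2.07-fold higher. Serpina3n, a protease inhibitor, was higher after MI in both genotypes, by 3.20-fold in LC livers (adjusted p = 0.00151, edgeR) and 9.18-fold in HMRKO livers (adjusted p = 3.72e-06, edgeR). Lcn2 and Apcs were also higher in LC + MI than in LC + sham livers, 3.98-fold and 2.64-fold. In HMRKO livers Lcn2 was at 763 to 1163 CPM after sham and 4945 to 8965 CPM after MI, and Apcs at 133 to 233 and 639 to 1063 CPM. Lrg1, a secreted glycoprotein, was 2.55-fold higher after MI in HMRKO livers. In LC livers Lrg1 was at 1631 to 2165 CPM after sham and 2766 to 3253 CPM after MI, without overlap.

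**Figure D4:**
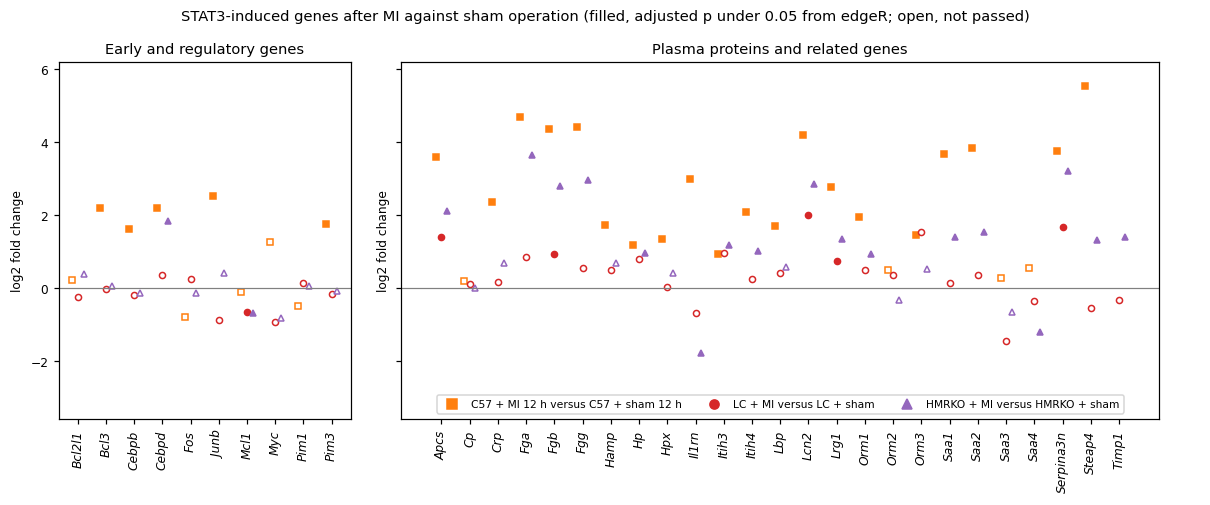
Log2 fold changes after MI against sham for the genes of both STAT3-induced lists, with squares for 12 hours, circles for LC livers at 1 day and triangles for HMRKO livers at 1 day, filled where the adjusted p from edgeR was under 0.05. Filled squares stand for 5 early and 20 plasma protein genes, filled circles for 1 and 5, and filled triangles for 2 and 17, counting both directions.

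The letters TTCNNNGAA were found in the 250 bases before the start in 6 of 25 promoters of the second list (24%; Apcs, Fga, Fgb, Hamp, Itih4 and Steap4) and in 0 of 11 promoters of the first, beside 7.02% of all promoters. The promoters cover 22 and 8 of the genes of these lists. A match is a description of the letters and not a site of binding.

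Markers of other liver cells differed between some of the groups compared above. Of all genes, 14.6% were higher in HMRKO + MI than in LC + MI livers and 22.0% higher than in HMRKO + sham livers. In LC livers 2.33% were lower after MI, and at 12 hours 34.3% were higher and 32.0% lower. In HMRKO + MI against LC + MI livers, 6 of 8 tested neutrophil markers were higher, and the sum over 11 markers was 32.5 to 37.0 CPM against 11.3 to 21.3 CPM, with no marker at 0 throughout a group. In HMRKO + MI against HMRKO + sham livers, 7 of 8 were higher, and the HMRKO + sham sum was 9.43 to 14.5 CPM. Kupffer cell and macrophage markers were lower in LC + MI than in LC + sham livers for 4 of 12, with sums of 164 to 185 against 252 to 330 CPM. At 12 hours, 6 of 10 tested neutrophil markers were higher and 2 lower, although their sum was lower in MI livers, 48.5 to 98.7 against 137 to 182 CPM, and 5 of 8 stellate cell markers were lower. Sinusoidal endothelial markers summed to 221 to 241 CPM in the MI and 303 to 495 CPM in the sham livers at 12 hours, with 1 of 10 higher and 2 lower.

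Lymphocyte markers were low in all livers and lowest in HMRKO + MI livers at 1 day. Their sum over 10 markers was 1.02 to 1.79 CPM in HMRKO + MI, 1.93 to 2.91 CPM in LC + MI, 3.57 to 5.88 CPM in HMRKO + sham and 3.77 to 9.55 CPM in LC + sham livers, so that each MI group lay below its sham group and HMRKO + MI below LC + MI. Of 5 tested, 3 were lower in HMRKO + MI than in HMRKO + sham livers, 2 were lower than in LC + MI livers, and none passed in LC livers. Of all genes, 21.7% were lower in HMRKO + MI than in HMRKO + sham livers and 16.2% lower than in LC + MI livers. At 12 hours both of the 2 tested were lower after MI, with sums of 2.11 to 3.52 against 6.33 to 10.8 CPM. The hepatocyte sum was 81092 to 91364 CPM in HMRKO + MI livers, which overlapped with the 79682 to 88122 CPM of LC + MI livers but lay wholly above the 65818 to 79862 CPM of HMRKO + sham livers, with 2 of 10 markers higher and 1 lower. The LC + sham sum of 81923 to 89195 CPM was also above that of HMRKO + sham livers, although none of the 10 markers passed there, and the Kupffer cell and macrophage sum was 159 to 235 CPM in HMRKO + sham against 252 to 330 CPM in LC + sham livers, with none of 12 passing. The part of these cells, of the hepatocyte markers and of depth at 12 hours in the differences of the 10 genes was not tested.

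The genes whose pattern over the 12 livers at 1 day was most like that of Stat3 were Grrp1, Riok3 and Jak1. Likeness was the mean absolute difference between standardized log2 CPM values, 0.181, 0.214 and 0.225 for these genes, where the median over all genes was 1.12. Jak1 is thus one of the 3 nearest of all genes tested, and of the other genes described here Osmr came next at 0.383 and Il6st at 0.510. Riok3 had 69.0 CPM on average in HMRKO + MI and 44.2 to 52.4 CPM in the other groups, while Grrp1 was low, at 1.17 CPM in HMRKO + MI and at most 0.368 CPM elsewhere. For Socs3 the nearest were Ptpn22 (0.310), Gm6493 (0.391) and Tada1 (0.395), and Ptpn22 stayed below 0.5 CPM in every group mean. These distances are a description over livers that share 4 groups.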

How the data were processed

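Values at 1 day are the authors' raw counts of reads for each gene. At 12 hours the authors deposited 3 values for each gene, namely an estimated count, FPKM and TPM, and scaled FPKM and TPM for transcript length and library size. The FPKM values and columns of the authors' group means or comparisons were not used. Build mm9, TopHat2, HISAT2 2.1.0, Bowtie2 2.2.3 and DESeq2 appear in the submitters' processing notes. What each tool made, the annotation and any use of strand were not given in the sources used here. Reads of overlapping genes cannot be separated. Libraries were made with a TruSeq RNA kit. Groups came from the labels, with operation of the 1 day MI livers and both times from the series design. Of the columns of values, 0 were unmapped.

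Counts (estimated counts rounded) were tested with edgeR 4.0.16 in R 4.3.3, using filterByExpr (minimum count 10, total 15), TMM and the quasi-likelihood test, over all 12 livers at 1 day and apart from them over 6 at 12 hours, with Benjamini-Hochberg adjustment over all genes tested and a threshold of 0.05. Errors of fold changes are standard errors of the fit, and edgeR put the biological coefficient of variation at 0.209 for the 1 day and 0.240 for the 12 hour livers. The test was checked on simulated counts in which 200 genes were changed. That check cannot show how the test holds at 12 hours, where 66.2% of all genes passed and the sham libraries differed in content. The 10 genes, the gene lists, written from general knowledge, and the tests were chosen with earlier results of these data known. Besides the 10, text names list genes that passed with an absolute log2 fold change over 1 (at most 6 per list and comparison, smallest p first), ligands that were measured, the 3 genes most like Stat3 and Socs3 and the targeted gene. Ctf1 at 1 day, Jak3, Sos2, Mcl1, Saa4, Il1rn, Hamp and Itih4 were named after their values were seen, to complete short counts, as were Gm20594 and Il11 in the account of the libraries. Some list genes are not reported here. For likeness, log2(CPM + 0.5) was centred on each gene's mean and scaled to the same SD. Alternatives were RLE and upper quartile scaling, other filters, DESeq2 1.42.0, limma 3.58.1 on log2(TPM + 1), no mitochondrially encoded genes, only the groups compared, a replicate block and leaving out each liver. Same-numbered livers did not deviate together (correlations of -0.171 to 0.182 over 18 pairs at 1 day and -0.089 to 0.0236 over 3 pairs at 12 hours), so numbers were not used to pair livers. Promoters came from a RefSeq table of GRCm38.p6.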

Additional observations from a re-analysis of the deposited data

Results flagged for a closer look

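For 3 of the 10 genes the effect of MI at 1 day, in log2 units and as HMRKO minus LC, differed between genotypes by the interaction term of edgeR: Il6ra by 1.30 (adjusted p = 0.00405), Osmr by 1.32 (adjusted p = 0.0419) and Stat3 by 0.88 (adjusted p = 0.0327). This term passed for 15.2% of all genes. Il6ra moved down in LC and up in HMRKO livers. When 1 liver was left out, the Il6ra term always passed, while those of Osmr and Stat3 each passed in 3 of 12 fits.

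The interaction also passed for genes that the text names for passing with a large fold change, in part in this same test, and 15.2% of all genes passed it, so their number is no result. Among ligands and receptors the difference was 1.18 for Clcf1 (adjusted p = 0.0497, edgeR), 5.59 for Lepr (0.00769) and -1.18 for Il11ra1 (0.0141). Among inhibitors and adaptors it was 0.71 for Ptpn2 (0.039), 0.55 for Pias2 (0.0486), 0.82 for Sos1 (0.0249) and 0.72 for Ptpn11 (0.0268). Among STAT3-induced genes it was 1.47 for Cebpd (0.0176), 1.52 for Serpina3n (0.0097), 2.42 for Fgg (0.00403), 2.79 for Fga (0.00537), 1.87 for Steap4 (0.0204), 1.86 for Fgb (0.00629) and 1.28 for Saa1 (0.0188). No explanation was tested.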

How the results depend on the processing

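Each group had 3 livers, and at 12 hours depth and operation cannot be told apart. Of 899 fold changes of the 10 genes recomputed under alternatives, 776 kept their direction and side of the threshold, 83 no longer passed, 17 newly passed and 23 changed sign, of which only Jak1 at 12 hours had passed. Of 107 counts of these genes passing, 74 stayed within 1.5 times. In LC livers the count of 2 became 1 with a replicate block (Lifr passed, Il6ra did not) and 0 when only the groups compared were fitted, and ranged from 0 to 2 when a liver was left out. Between sham groups the count of 1 became 0 with the block and with only the groups compared, and 0 to 1 without a liver. Leaving out a liver gave 1 to 7 for HMRKO + MI against LC + MI (7 without LC + sham replicate 1) and 1 to 3 for the interaction.

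In the 12 hour comparison, signs changed for Il6st with RLE factors (-0.08), the stricter filter (-0.09), upper quartile scaling (-0.04), DESeq2 (-0.08) and limma on TPM (-0.54), and for Lifr with the stricter filter (-0.00) and TPM (-0.59). On TPM they also changed for Jak1 (-0.04), Tyk2 (-0.15) and Pias3 (-0.21). The median of all genes was -0.37 on TPM and 0.11 in edgeR. On TPM 5 of the other JAK and STAT genes, 3 adaptors and 8 early STAT3-induced genes passed in either direction, against 3, 6 and 5 in edgeR. Without 1 liver, Il6st at 12 hours ranged from -0.15 to 0.34 and Lifr from -0.16 to 0.38. In LC livers Jak1 ranged from -0.08 to 0.03, Jak2 from -0.11 to 0.07, Pias3 from -0.07 to 0.40, Socs3 from -0.51 to 0.50 and Stat3 from -0.09 to 0.20. The causes were not tested.

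The replicate block also took Jak1 (0.0598) and Jak2 (0.0656) against LC + MI and the Osmr interaction (0.0589) over the threshold and brought Socs3 under it against LC + MI (0.033) and HMRKO + sham (0.0401). Other calls of the 10 genes did not change with the block.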
